A study of Mus musculus with 36 samples.

Results

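The 43 genes described here are interferon-stimulated genes, chosen by name, with no measured value in the rule. All 43 were found among the 46078 genes of the count table, and all 43 were among the 16903 genes that passed the filter on low counts. Messenger RNA had been sequenced from lungs of wild-type female C57BL/6 mice, a common inbred strain, given by the nose 1 dose of graphene oxide, an oxidised carbon sheet material, or of its carrier. The exposed mice received US, S or L sheets, the labels' names for 3 size classes, at 50 μg per mouse in 50 μL of 5% dextrose, and the D mice received the same volume of the dextrose carrier with 0 μg. Lungs were taken at day 1, 7 or 28, at ages of 9, 10 and 13 weeks, and each of the 12 groups has 3 libraries (n = 3). The labels give 4 to 5 animals per group and do not say which animal a library came from, so the spread behind each p-value is that between libraries and may be partly technical. Large airways had been dissected away, and small portions of each lobe were sampled, so a lower level can reflect fewer cells of a type or less RNA per cell, which cannot be told apart here.

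Interferons are cytokines that put cells into an antiviral state. Type I and type III interferons signal through the kinases Jak1 and Tyk2 to a complex that contains Stat2 and Irf9 and binds a promoter element called the interferon-stimulated response element. Type II interferon, the product of Ifng in T and NK cells, signals through Jak1 and Jak2 and acts at a promoter element called the gamma-activated site, and it is the main inducer of the GBP and IRG GTPases and of Cxcl9 in many mouse tissues. In lung, these genes are best known from respiratory virus infection, and a resting level is kept by tonic signalling. Of the members, 33 are antiviral genes: the IFIT, OAS and Mx families, the Isg15 system, transcription factors, RNA sensors and other effectors. The other 10 comprise 4 guanylate-binding proteins (GBPs), 4 immunity-related GTPases (IRGs) and the 2 chemokines Cxcl9 and Cxcl10, ligands of the receptor CXCR3 on T and NK cells.

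To show the 2 promoter elements through which interferons act, the 150 bases before the start site are given for 6 members of both classes, from RefSeq (GRCm38.p6), 5′ to 3′ on the strand of the gene. Capitals mark matches to GAAA, any 2 bases and GAAA (on the other strand TTTC, any 2 bases and TTTC), the core of the interferon-stimulated response element, and to TTCNNNGAA, the core of the gamma-activated site, which reads the same on both strands. Ifit1 lies at chr19:34640739-34640888 (+), Isg15 at chr4:156200819-156200968 (-), Oas1a at chr5:120907526-120907675 (-), Gbp2 at chr3:142620513-142620662 (+), Gbp3 at chr3:142559894-142560043 (+) and Igtp at chr11:58199406-58199555 (+).
Ifit1: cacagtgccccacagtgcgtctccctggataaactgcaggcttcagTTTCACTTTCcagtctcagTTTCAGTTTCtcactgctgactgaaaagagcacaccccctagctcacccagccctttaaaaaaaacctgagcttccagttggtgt
Isg15: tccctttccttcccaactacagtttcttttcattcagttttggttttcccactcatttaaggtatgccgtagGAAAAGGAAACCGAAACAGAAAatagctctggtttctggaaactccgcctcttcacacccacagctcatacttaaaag
Oas1a: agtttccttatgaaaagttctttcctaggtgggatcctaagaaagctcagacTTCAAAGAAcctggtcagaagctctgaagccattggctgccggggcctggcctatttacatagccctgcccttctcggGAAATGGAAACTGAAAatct
Gbp2: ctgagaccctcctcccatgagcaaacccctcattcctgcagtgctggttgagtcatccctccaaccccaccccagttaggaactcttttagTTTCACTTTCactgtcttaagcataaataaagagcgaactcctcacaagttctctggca
Gbp3: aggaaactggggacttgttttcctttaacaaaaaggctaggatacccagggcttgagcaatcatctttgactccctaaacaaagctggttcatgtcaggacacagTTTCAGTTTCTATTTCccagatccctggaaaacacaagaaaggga
Igtp: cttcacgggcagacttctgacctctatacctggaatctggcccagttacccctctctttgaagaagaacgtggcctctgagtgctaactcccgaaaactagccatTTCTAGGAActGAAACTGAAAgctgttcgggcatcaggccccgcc

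Promoter windows, running from 250 bases before to 50 bases after the start, were matched for 33 of the 43 members. A match to the first of these motifs on either strand stood in 20 of these 33 members (60.6%), against 3.99% of all 27025 genes with a window. A match to TTCNNNGAA stood in 10 of 33 (30.3%), against 9.55% of all genes. Among the GTPase and chemokine members 8 of 9 held the first motif and 4 of 9 the second, and among the antiviral members 12 and 6 of 24. In Isg15 the first motif occurred 3 times in overlapping form, and in Oas1a and Gbp3 it occurred 2 times in overlapping form, while Igtp held 1 match to each motif with no overlap between them. Both motifs stood together in 7 members and neither in 10. These are matches of letters, not measured binding sites, and the members had been chosen as interferon genes.

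The members spanned a wide range of resting levels. On the length-corrected TPM scale, a transcript level corrected for length and depth and deposited by the authors, the D libraries of all days averaged 234 ± 52.6 TPM for Ifi27l2a, a small interferon-induced protein, and 230 ± 61.4 TPM for Bst2, the tetherin that holds budding virions at the cell surface. Ifit3, which stabilises its partner Ifit1 on viral RNA, averaged 118.03 ± 12.5 TPM in D lungs, and Gbp2, a GTPase that attacks pathogen vacuoles, 103.2 ± 9.86 TPM. At the other end stood Oasl1 at 3.95 ± 1.02 TPM, Oas3 at 2.53 ± 0.536 TPM and Cxcl9 at 1.36 ± 1.13 TPM (SD over the 9 D libraries in each case). Every member was therefore detectable in control lung, and the lowest count of any member in any library was 14, for Cxcl9.

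Several members sit side by side in the genome, with positions in GRCm38 as the deposited tables give them. Chromosome 5 carried 7 members, the 5 OAS and OAS-like genes and, elsewhere on it, Cxcl9 (92321347 to 92328079) and Cxcl10 (92346638 to 92348889). Gbp2, Gbp3, Gbp5 and Gbp7 lie within 1 cluster on chromosome 3, Ifit1, Ifit2 and Ifit3 on chromosome 19, Mx1 and Mx2 on chromosome 16, and Cmpk2 beside Rsad2 on chromosome 12. The annotated spans of Igtp (58199556 to 58207591) and Irgm2 (58199618 to 58222779) on chromosome 11 overlap on the same strand. Reads of these overlapping genes, and of close copies such as Ifit3 and Ifit3b, Oas1a and Oas1g, or members of the GBP, IRG and Trim30 families, could have been split by the counting, so their separate values are uncertain.

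Total counts were 16154696 to 23808264 per library in 35 libraries and 80566751 in S day 7 replicate 2. Levels are given as CPM, counts scaled to a common library total, and fold changes are log2 values ± standard error from edgeR's quasi-likelihood test over all genes. With this test, DESeq2 and limma on TPM values alike, 0 of 43 members were called in any of the 9 comparisons of a size with D. A gene was called where its Benjamini-Hochberg adjusted p over the 16903 genes was under 0.05. A score is the mean over genes of log2 CPM minus the gene's own mean over the 36 libraries, so 0 is the average library. Log2 CPM, in scores and elsewhere, used totals of the genes tested, scaled by edgeR's TMM factors, with a prior count of 1. The CPM values given per library used the plain totals. Within groups, log CPM of libraries correlated at 0.969 or more.

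One library stood apart in these genes. US day 28 replicate 3 had a member score of 1.54, while the other 35 libraries lay between -0.59 and 0.21. It held the highest CPM of all 36 libraries in 39 of 43 members, against 3.61% of all genes tested. In 30 of 43 members it lay more than 1 log2 unit above the mean of its group mates, against 2.67% of all genes. The heatmap of members by library shows this column and, at the other end of the scale, the lower levels of several exposed libraries at day 1. Results that involve US at day 28 are given with and without it.

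**Figure D1:**
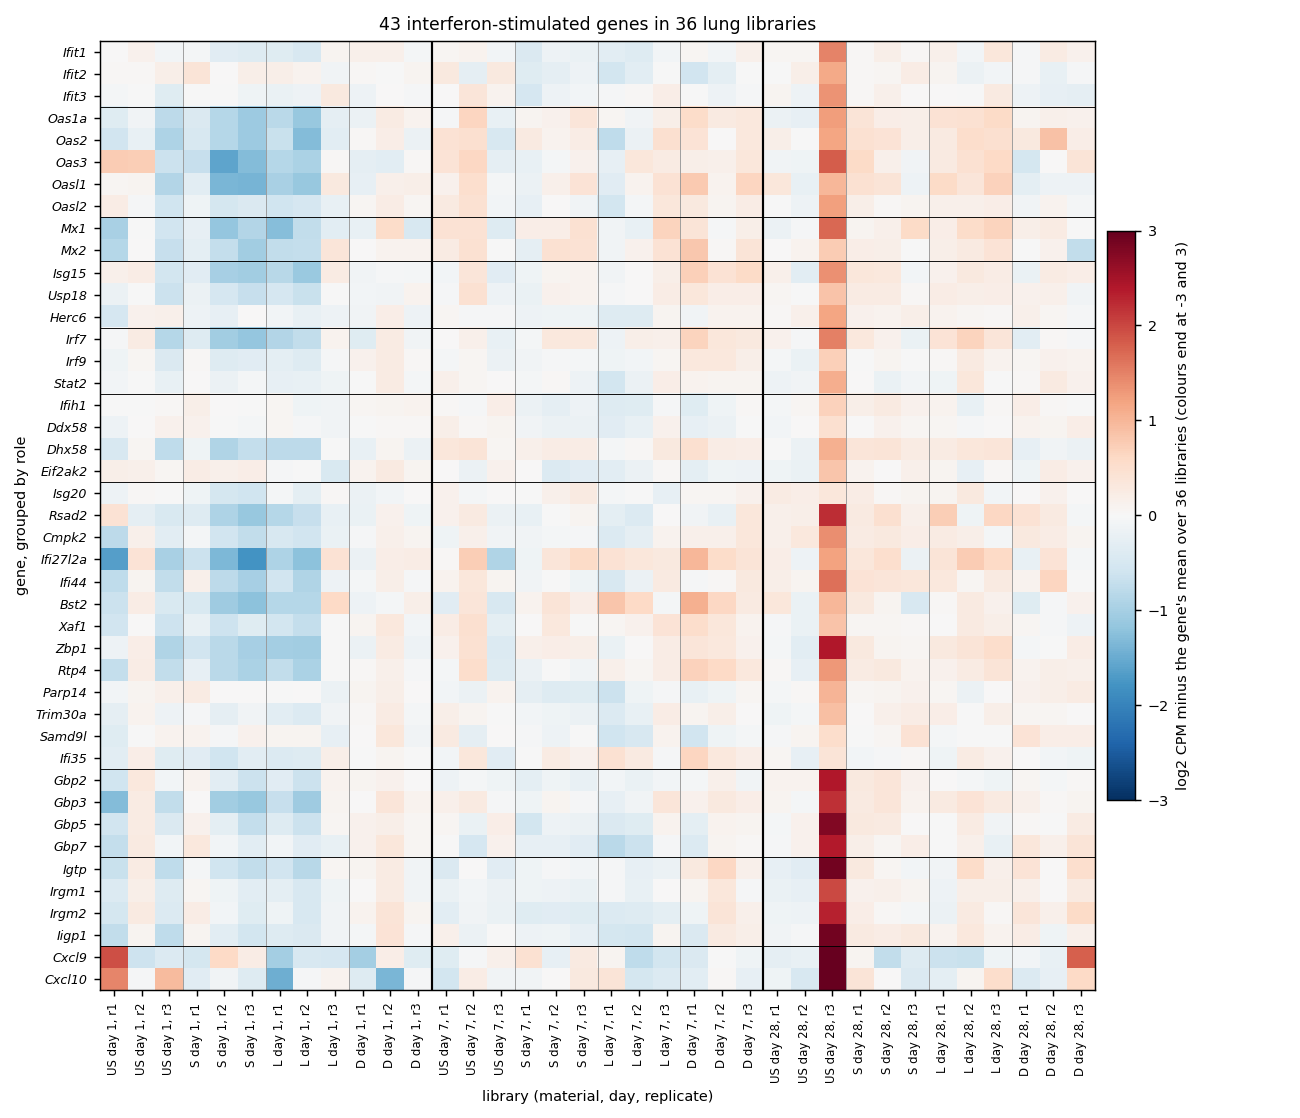
Levels of the 43 interferon-stimulated genes (rows, grouped by role) in 36 lung libraries (columns, by day, with US, S, L and D side by side within a day), as log2 CPM minus the gene's mean over all libraries; red is above and blue below that mean. US day 28 replicate 3 was the highest library in 39 of 43 genes, and the blue columns at day 1 belong to exposed lungs.

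At day 1, most antiviral members lay lower in S lungs than in D lungs, but 0 of 43 were called (0.0473% of all genes were), and the smallest adjusted p was 0.157. The log2 fold change was below 0 in 38 of 43 members, against 52.4% of all genes, and its median was -0.42, against -0.02 over all genes. An unadjusted p under 0.05 with a lower level was found for 16 members, against 9.7% of all genes, and with a higher level for 0. In 20 members all 3 S libraries lay below all 3 D libraries, against 19.8% of all genes, and in 0 members above (13.4%). The OAS family is named for enzymes that make the oligoadenylates that switch on RNase L. It had a median log2 fold change of -0.84, with 5 of 5 members below 0. The Mx family, dynamin-like GTPases, had a median of -0.73, although C57BL/6 mice are known to carry an Mx1 allele without a functional protein. Members of the IFIT family (median 0.01) and of the RNA sensors with the kinase Eif2ak2 (median -0.01) lay on both sides of D. Ifit1, which binds viral RNA caps, had 38.4, 31.1 and 30.1 CPM in S lungs, against 45.1, 47.3 and 38.9 CPM in D lungs (-0.35 ± 0.22, adjusted p = 0.354), without overlap.

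The member with the smallest p in S lungs was Oas1a, an oligoadenylate synthetase. It stood at 10.2, 7.48 and 6.33 CPM in S lungs, against 12.3, 17.2 and 14.9 CPM in D lungs (log2 fold change -0.84 ± 0.28, adjusted p = 0.157). The groups did not overlap, and S replicate 1 was nearest to D. Isg20, a nuclease that degrades single-stranded RNA, had 30.8, 22.9 and 21.9 CPM in S lungs, against 30.3, 33.9 and 34.3 CPM in D lungs (-0.33 ± 0.11, adjusted p = 0.161). Here S replicate 1 lay within the D range. Ifi27l2a had 30.5, 18.4 and 13.4 CPM in S lungs, against 42.6, 58.1 and 55.5 CPM in D lungs (-1.27 ± 0.44, adjusted p = 0.165), with every S library below every D library. The same held for Bst2 at 59.6, 38.5 and 34.2 CPM in S lungs, against 74.3, 82.1 and 92.3 CPM in D lungs (-0.86 ± 0.34), and this value was chosen after it was seen. Not every member followed, as Ifit2, a translation inhibitor, had 56.4, 42.4 and 47.6 CPM in S lungs, against 44.4, 45.3 and 45.4 CPM in D lungs. A fit of only the S and D libraries of day 1 called 8 members, all lower in S: Oas1a, Oas2, Oasl2, Ifi27l2a, Bst2, Ifi35, Zbp1 and Rtp4. That fit also called 7.53% of all genes. Leaving out S replicate 1 from the full fit called 2, Isg20 and Oasl1, both lower in S (share of all genes called not given).

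In L lungs at day 1 the pattern was similar in direction, with 0 of 43 members called (0.0237% of all genes). The log2 fold change was below 0 in 40 of 43 members, against 46.9% of all genes, with a median of -0.37. An unadjusted p under 0.05 was found for 6 members with a lower level in L (2.08% of all genes) and 0 with a higher level (2.86%), and 3 of 43 log2 fold changes were above 0 (53.1%). In 18 members all 3 L libraries lay below all 3 D libraries (6.66% of all genes), and in 0 above (3.23%). Oas1a had 7.81, 6.24 and 11.3 CPM in L lungs, against 12.3, 17.2 and 14.9 CPM in D lungs (-0.76 ± 0.28, adjusted p = 0.747). Oas2, of the same family, had 9.16, 5.94 and 11.7 CPM in L lungs, against 15.2, 17.8 and 13.1 CPM in D lungs (-0.73 ± 0.30). In both genes the groups did not overlap, and L replicate 3 lay closest to D. Irf9, a DNA-binding partner of Stat2, had 63.6, 60.0 and 76.7 CPM in L lungs, against 87.7, 98.7 and 80.8 CPM in D lungs (-0.37 ± 0.15), again without overlap. The member score was -0.51 and -0.57 in L replicates 1 and 2 and -0.03 in replicate 3, against -0.07, 0.13 and -0.02 in D. Without L replicate 3 the median log2 fold change was -0.59.

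In US lungs at day 1 most antiviral members lay below D and the chemokines above it, and 0 of 43 were called (0.0887% of all genes). The log2 fold change was below 0 in 36 of 43 members, against 49.1% of all genes, with a median of -0.22. The other 7 were above 0 (50.9%), and an unadjusted p under 0.05 was found for 1 member with a higher level (9.36%) and 1 with a lower level (6.76%). All 3 US libraries lay below all 3 D libraries in 3 members (10.4% of all genes) and above them in 1 (5.72%), counts that are not above these shares. That 1 was Cxcl10, with 9.71, 3.64 and 7.14 CPM in US lungs, against 2.85, 1.47 and 3.62 CPM in D lungs (1.43 ± 0.62, adjusted p = 0.26). Neutrophil markers summed to 668, 205 and 273 CPM in US lungs, against 150, 172 and 204 CPM in D lungs, and monocyte markers to 2532, 1574 and 1726 CPM in US lungs, against 1499, 1424 and 1523 CPM in D lungs. Most of the monocyte sum was Chil3 (675 to 2459 CPM over the 36 libraries), which is also listed as an alveolar macrophage marker. No other monocyte marker exceeded 172 CPM in any library. The neutrophil and monocyte sums were both highest in US replicate 1, as was Cxcl10, and their part in the Cxcl10 level was not tested. Its neighbour Cxcl9 was high in US replicate 1 only, at 6.58 CPM, against 1.14 and 1.31 CPM in the other US libraries and 0.867, 2.15 and 1.38 CPM in D. Xaf1, an apoptosis-promoting factor, had 25.2, 39.6 and 25.4 CPM in US lungs, against 42.3, 51.8 and 37.5 CPM in D lungs (-0.48 ± 0.22, adjusted p = 0.279). Irf9 had 68.0, 81.9 and 58.2 CPM in US lungs, against 87.7, 98.7 and 80.8 CPM in D lungs (-0.29 ± 0.15). In both genes US replicate 2 lay within the D range and the other US libraries below it.

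**Figure D2:**
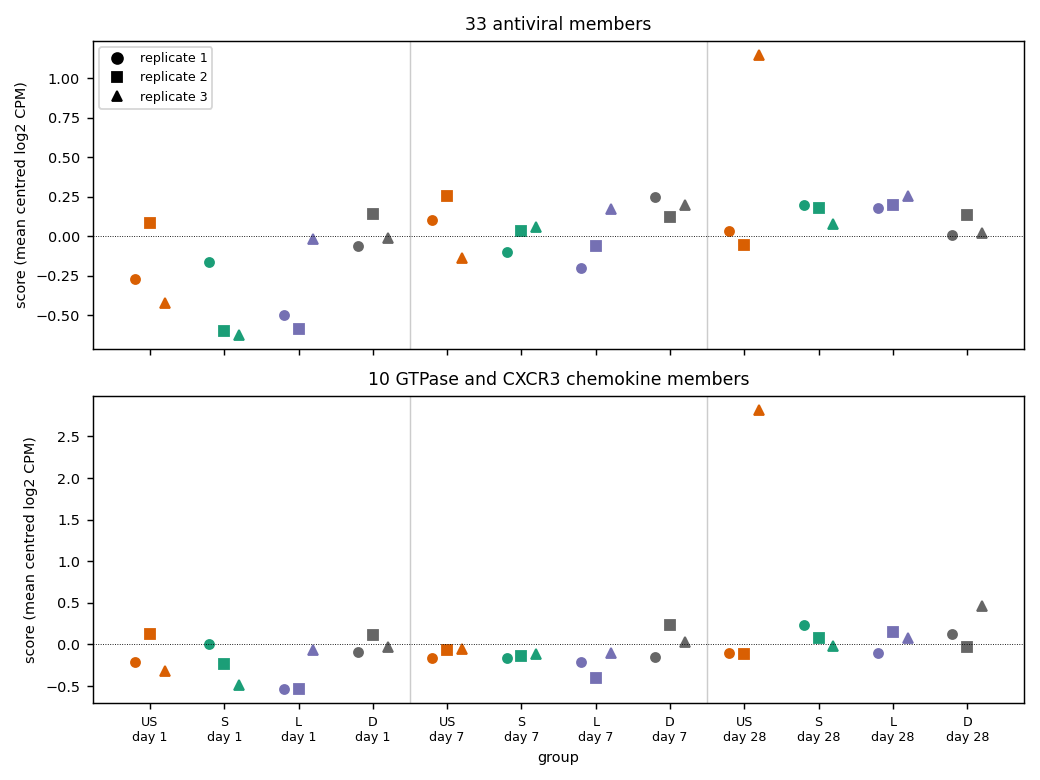
Score of the 33 antiviral members (top) and of the 10 GTPase and CXCR3 chemokine members (bottom) in each library by group; the score is the mean of log2 CPM after centring each gene on its mean over 36 libraries, and symbols mark replicates. At day 1 the 2 lowest antiviral scores are -0.62 and -0.60 in S and -0.58 and -0.50 in L, while D lies between -0.06 and 0.14, and US day 28 replicate 3 stands at 1.15 and 2.82.

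T and NK cell markers were among the marker lists that were low in the same day 1 libraries. The 14 T and NK cell markers all had log2 fold changes below 0 against D in US, S and L lungs, with medians of -0.60, -0.65 and -0.23, and 0 of 14 were called in each. Their summed level was 49.1, 191 and 151 CPM in US, 185, 102.42 and 95.8 CPM in S and 142, 106.34 and 271 CPM in L, against 203, 229 and 203 CPM in D. The libraries with the lowest antiviral scores in S and L, S replicates 2 and 3 and L replicates 1 and 2, were also the lowest in these markers within their groups. Across the 36 libraries the antiviral score and the marker score had a Pearson correlation of 0.765 (Spearman 0.679), and without US day 28 replicate 3 it was 0.758 over 35 libraries. Over the same 35 libraries the antiviral score correlated at 0.716 with plasmacytoid dendritic cell, 0.597 with B cell and 0.553 with red blood cell markers. With lung epithelium markers it was 0.428 and with alveolar macrophage markers -0.474. The libraries share depth, scaling and group, and the correlations are a description. US day 1 replicate 1 stood off the relation with the T and NK cell markers, with their lowest score, -1.83, and an antiviral score of -0.27. Markers of plasmacytoid dendritic cells, cells known for a high output of type I interferon, had a median log2 fold change of -0.40 in US, -0.53 in S and -0.48 in L against D. The part of these cell markers in the lower member levels was not tested.

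**Figure D3:**
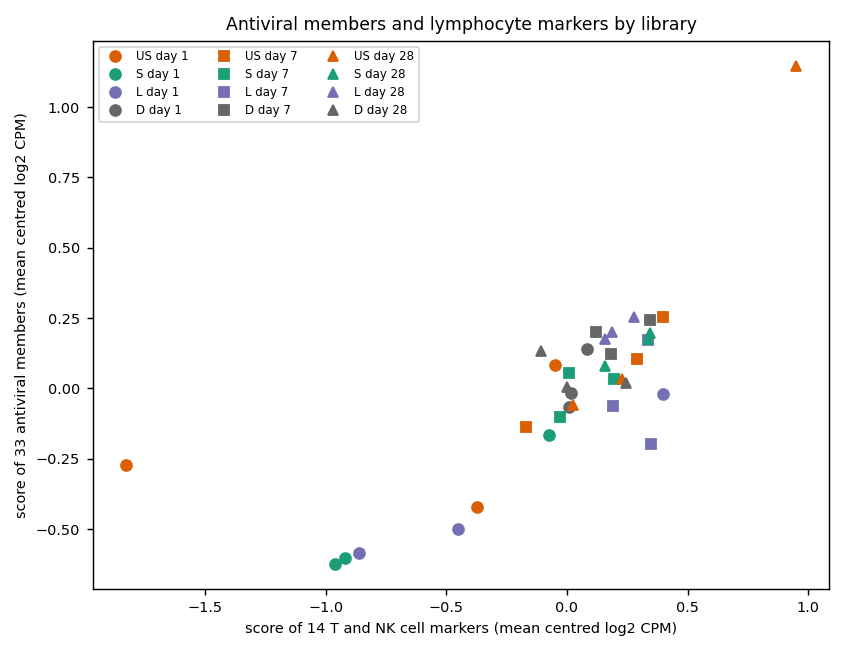
Score of the 33 antiviral members against the score of 14 T and NK cell markers, each point 1 library, colours marking the material and symbols the day. S and L libraries of day 1 lie at the lower left apart from S replicate 1 and L replicate 3, and US day 28 replicate 3 lies at the upper right with an antiviral score of 1.15.

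At day 7 the median differences from D were smaller than at day 1, and 0 of 43 members were called for any size. The shares of all genes called were 2.09% for US, 0.45% for S and 0.154% for L. Median log2 fold changes of the members were -0.04 in US, -0.21 in S and -0.21 in L, against 0.01, -0.01 and 0.00 for all genes. On the TPM scale the medians were 0.09 in US and -0.11 in S, and without L replicate 3 the L median was -0.38. Fat cell markers summed to 14.2, 16.5 and 20.6 CPM in US, 14.3, 13.2 and 27.4 CPM in S and 25.4, 17.6 and 13.6 CPM in L, against 34.4, 26.5 and 48.3 CPM in D (Adipoq was at 0 in 5 of the 36 libraries), and their part in these differences was not tested. In US an unadjusted p under 0.05 was found for 2 members with a higher and 3 with a lower level (12.8% and 12.9% of all genes). In S it was found for 0 and 2 members (5.27% and 4.06%), and in L for 0 and 1 (2.71% and 2.17%). The log2 fold change was below 0 in 28, 37 and 39 of 43 members for US, S and L (48.5%, 52% and 50% of all genes). The 3 exposed libraries lay below the 3 D libraries in 4, 12 and 8 members for US, S and L (8.87%, 4.57% and 2.55% of all genes) and above them in 3, 0 and 0 (9.79%, 11.1% and 4.99%). Irf9 lay below D without overlap in all 3 sizes, and the 3 comparisons share the D libraries. It had 79.1, 86.8 and 70.5 CPM in US, 78.2, 80.4 and 79.2 CPM in S and 71.2, 76.1 and 88.1 CPM in L, against 99.3, 99.0 and 92.3 CPM in D (log2 fold changes -0.32, -0.34 and -0.33, each ± 0.15). Isg15, the ubiquitin-like modifier, had 19.95, 22.6 and 22.6 CPM in S and 18.7, 21.1 and 24.9 CPM in L, against 33.7, 27.6 and 31.2 CPM in D, again without overlap (-0.55 ± 0.30 and -0.54 ± 0.30).

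The other members named at day 7 by their p-values showed mixed directions. In US lungs Bst2 had 67.0, 110 and 59.5 CPM, against 173, 125.75 and 101.28 CPM in D lungs (-0.79 ± 0.33, adjusted p = 0.139), with US replicate 2 inside the D range. Ifi35, a leucine-zipper protein, had 64.6, 87.8 and 53.2 CPM in US lungs, against 105.06, 83.1 and 79.1 CPM in D lungs (-0.41 ± 0.17, adjusted p = 0.144), also with US replicate 2 inside. Ddx58, the RNA sensor RIG-I, lay on the other side, with 94.4, 85.9 and 86.3 CPM in US lungs, against 68.2, 71.7 and 81.9 CPM in D lungs (0.24 ± 0.11, adjusted p = 0.168) and no overlap. In S lungs Rtp4, a chaperone of membrane receptors, had 38.8, 42.3 and 39.6 CPM, against 66.4, 62.1 and 52.3 CPM in D lungs (-0.63 ± 0.28, adjusted p = 0.469). S replicates were alike and all below D. In L lungs Cmpk2, a mitochondrial nucleotide kinase, had 24.9, 28.3 and 38.4 CPM, against 37.4, 37.1 and 43.7 CPM in D lungs (-0.39 ± 0.22), with L replicate 3 inside the D range. Leaving out US replicate 2 called 2 members, Bst2 and Ifi35, both lower in US than in D (share of all genes called not given).

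At day 28 the largest values of the whole data set for these genes came from 1 US library. Of 43 members 0 were called in US against D (0.0237% of all genes), although the log2 fold change was above 0 in 42 of 43, against 53.2% of all genes, with a median of 0.54. An unadjusted p under 0.05 with a higher level in US was found for 21 members, against 3.36% of all genes, and with a lower level for 0 (2.66%). All 3 US libraries lay above all 3 D libraries in 3 members (6.27%) and below in 0 (9.03%). Without US replicate 3 the median was -0.12, 32 of 43 members were below 0 (46.8% of all genes with all libraries), and 0 members had an unadjusted p under 0.05 with a higher level. In that fit 3 members had an unadjusted p under 0.05 with a lower level in US, against 2.91% of all genes.

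The 3 members with the smallest p had 1 high library each. Gbp2 had 145, 144 and 715 CPM in US lungs, against 142, 131.43 and 139 CPM in D lungs (1.296 ± 0.34, adjusted p = 0.253). Ifit3 had 121.84, 101.52 and 288 CPM in US lungs, against 103.19, 96.7 and 95.6 CPM in D lungs (0.81 ± 0.21, adjusted p = 0.26). Gbp5, a GBP that promotes inflammasome assembly, had 24.4, 27.7 and 173 CPM in US lungs, against 26.4, 25.5 and 30.1 CPM in D lungs (1.47 ± 0.41, adjusted p = 0.305). In all 3 genes US replicates 1 and 2 lay in or near the D range and replicate 3 far above it. Without that library the log2 fold changes were 0.09 ± 0.19 for Gbp2, 0.20 ± 0.14 for Ifit3 and -0.05 ± 0.23 for Gbp5. Leaving out US replicate 2 instead called Gbp2 and Ifit3, both higher in US (share of all genes called not given).

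Within US day 28 replicate 3 the roles differed in size. Over the mean of its group mates it was 42.1-fold for Cxcl9, with 63.1 CPM against 1.48 and 1.52 CPM, and 12.5-fold for Cxcl10, with 38.1 CPM against 3.44 and 2.65 CPM. The IRGs were 4.56- to 9.14-fold higher, led by Igtp, which acts on the vacuoles of intracellular pathogens, with 430 CPM against 48.7 and 45.4 CPM. Iigp1, another IRG, had 691 CPM, against 87.9 and 90.0 CPM. The 4 GBPs were 4.57- to 6.66-fold higher. The antiviral families were lower in this ratio, with medians of 2.58 for the IFIT family, 2.50 for the OAS family, 2.61 for Mx, 2.15 for the Isg15 system and 1.81 for the RNA sensors and kinase. Zbp1, a sensor of left-handed nucleic acid, was the antiviral member with the highest ratio, at 6.03 with 87.7 CPM against 15.9 and 13.1 CPM. The 4 members in which another library was highest were Bst2, Ifi35 and Mx2, each highest in D day 7 replicate 1, and Isg20, highest in L day 28 replicate 2. This is a description of 1 library with no replicate, and it carries no test.

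**Figure D4:**
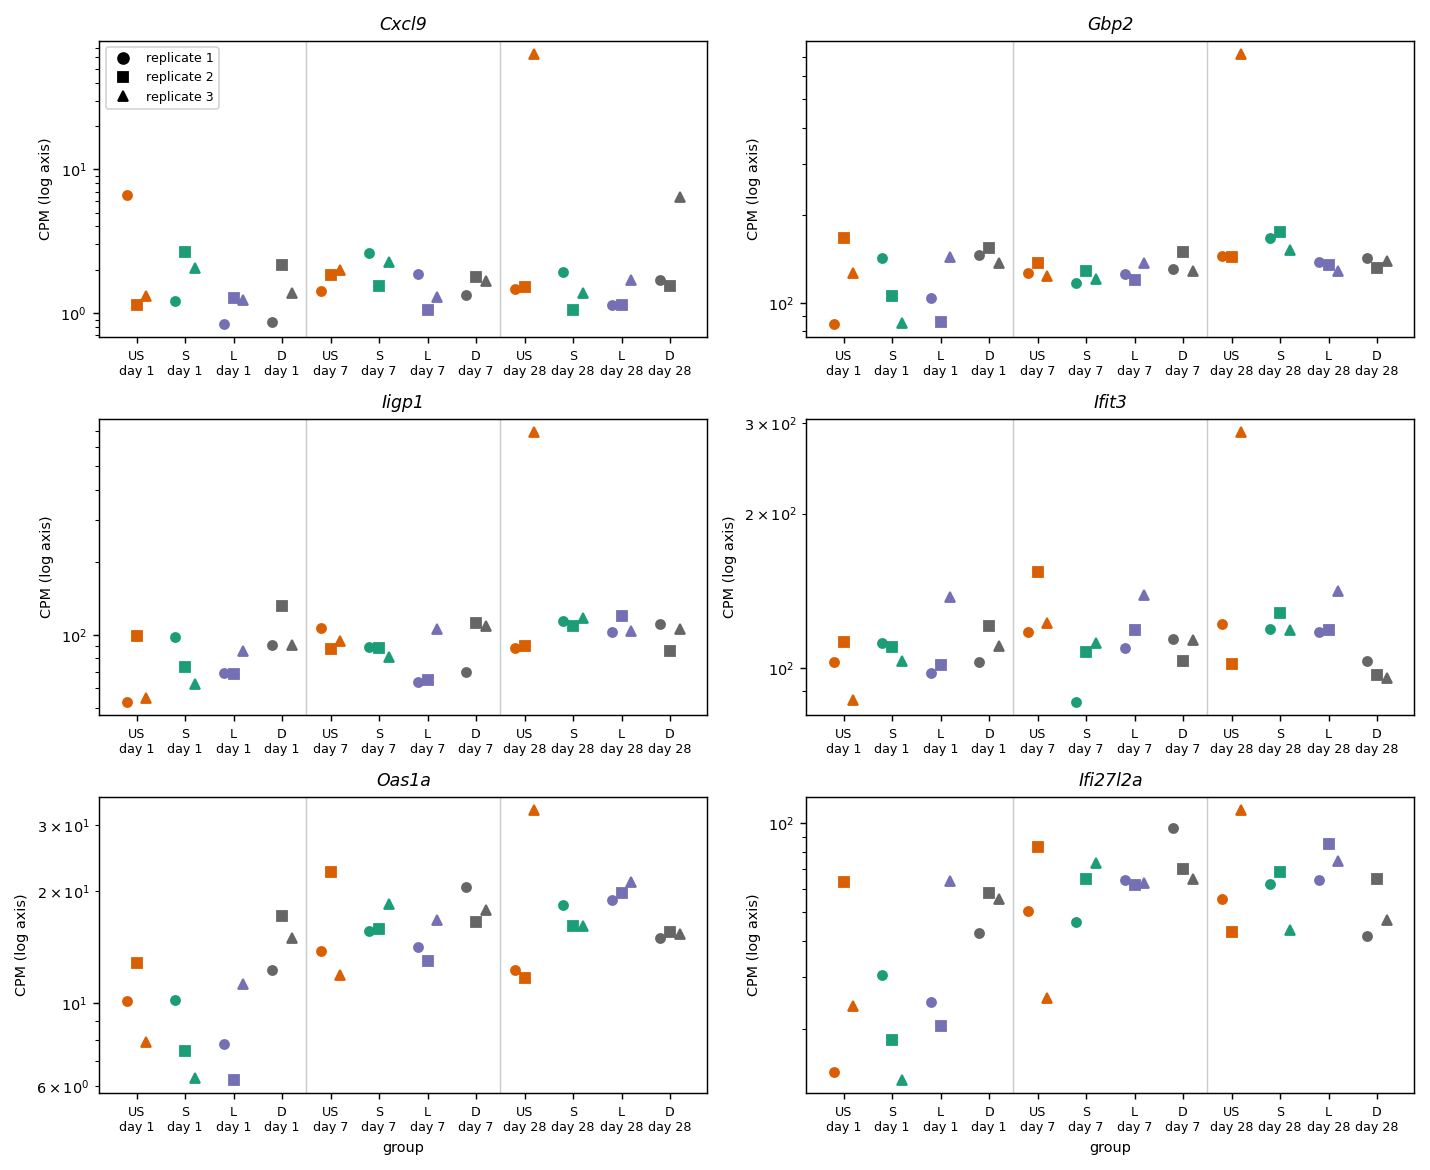
Level in CPM (log axes that differ between panels) of 6 members in each library by group, with symbols marking replicates and colours the material. Cxcl9, Gbp2, Iigp1 and Ifit3 are highest in US day 28 replicate 3, while Oas1a and Ifi27l2a also show low values in exposed lungs at day 1.

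Other genes of the pathway were high in that library too. Ifng, the type II interferon gene, had 5.12 CPM in US day 28 replicate 3, against 0.477 and 0.477 CPM in its group mates and at most 1.19 CPM in any other library. Ido1, a tryptophan-degrading enzyme induced by type II interferon, had 16.2 CPM, against 1.24 and 1.60 CPM. Of 57 further interferon-induced genes that passed the filter, 48 were highest in this library, while 0 of 9 receptors and kinases were, which ranged from 0.922 to 1.19 times the mean of the group mates. The type I and type III interferon genes gave no such reading, since Ifnb1 was at 0 CPM in this library and 0 of the 14 listed type I and III genes passed the filter. Its T and NK cell markers summed to 444 CPM, against 236 and 204 CPM in the group mates, with 9 of 14 highest of all libraries and 0 of 14 at 0. Monocyte markers had a median ratio of 1.704 to the group mates, B cell markers 1.08 and plasmacytoid dendritic cell markers 1.04. The median ratio was 2.39 for 5 fat cell markers and 2.20 for 5 cardiomyocyte markers, with 0 of either highest in this library. Fat cell markers summed to 17.2 CPM there, against 17.7 and 18.04 CPM in the group mates, and cardiomyocyte markers to 76.4 CPM, against 55.3 and 35.8 CPM. The part of these cells in the library's high values was not tested.

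In S and L lungs at day 28 the members lay close to D, and 0 of 43 were called for either size (0.237% and 2.15% of all genes). The median log2 fold change was 0.09 in S and 0.08 in L, with 30 and 27 of 43 members above 0 (50.1% and 50% of all genes). An unadjusted p under 0.05 with a higher level was found for 1 member in S (5.18%) and 2 in L (8.11%), and with a lower level for 0 in both (4.69% and 8.63%). The exposed libraries lay above D without overlap in 6 members for S and 10 for L (12% and 16.5% of all genes). They lay below D in 1 and 3 members (10.7% and 14.4%). The counts above D were not far from these shares, and those below D were under them. Dhx58, the RNA-sensor regulator LGP2, had 20.2, 20.3 and 18.8 CPM in S and 18.8, 20.6 and 20.7 CPM in L, against 13.3, 14.5 and 13.8 CPM in D (0.51 ± 0.24 and 0.50 ± 0.24, adjusted p = 0.478 and 0.282). Oasl1, which in mice restrains translation of Irf7, had 5.95, 5.57 and 3.93 CPM in S and 6.41, 5.68 and 7.07 CPM in L, against 3.502, 3.87 and 3.85 CPM in D (0.46 ± 0.34 and 0.74 ± 0.34). In both genes every S and L library lay above every D library in CPM, and the comparisons share the D libraries. For Oasl1, however, S replicate 3 (3.93 CPM) barely exceeded D replicate 2 (3.87 CPM). Irf7, the factor that amplifies type I interferon production, had 52.3, 63.6 and 51.5 CPM in L lungs, against 31.2, 40.0 and 37.9 CPM in D lungs (0.59 ± 0.30, adjusted p = 0.32), without overlap. Ifit3 had 119.1, 127.98 and 118.46 CPM in S lungs, against 103.19, 96.7 and 95.6 CPM in D lungs (0.30 ± 0.21, adjusted p = 0.673), also without overlap. A fit of only the L and D libraries of day 28 called 3 members, Dhx58, Irf7 and Oasl1, all higher in L, and 5.14% of all genes. B cell markers summed to 260, 323 and 367 CPM in S and 350, 325 and 391 CPM in L, against 274, 207 and 188 CPM in D, so that L did not overlap with D. Their part in the higher levels of Dhx58, Oasl1 and Irf7 was not tested.

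**Figure D5:**
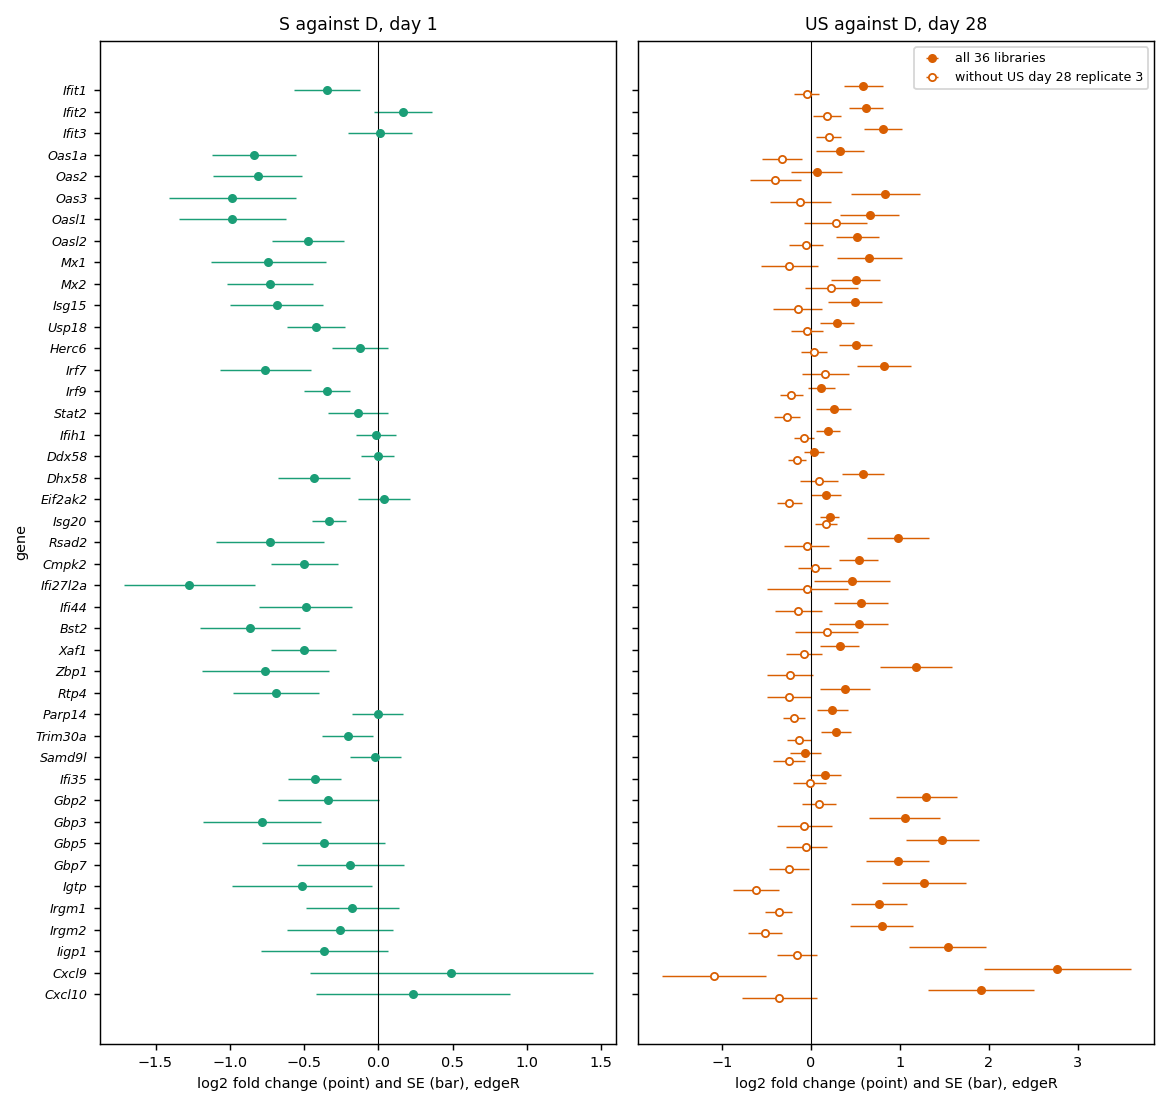
Log2 fold change of each member with its standard error (bars) for S against D at day 1 (left) and for US against D at day 28 (right), where US values are shown with all 36 libraries (filled) and without US day 28 replicate 3 (open). The day 1 values are below 0 in 38 of 43 members, and the day 28 median moves to -0.12 without that library.

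Between sizes on the same day, 1 member was called in 1 of 9 comparisons. Cxcl9 had 1.15, 1.15 and 1.69 CPM in L lungs at day 28, against 1.48, 1.52 and 63.1 CPM in US lungs (log2 fold change -4.09 ± 0.91, adjusted p = 0.0261), so it was called lower in L, in a comparison in which 0.515% of all genes were called. Without US replicate 3 the value was -0.22 ± 0.61 (adjusted p = 0.933), and leaving out any 1 L library also ended the call. It ended too with a replicate block (-3.69, adjusted p = 0.0688), with limma on TPM (adjusted p = 0.523) and with only the groups compared (adjusted p = 0.183), and DESeq2 gave no adjusted p. Leaving out US replicate 1 or 2 instead called 5 and 6 members, all lower in L (shares of all genes called not given). In US against S, leaving out either of these called 1, Cxcl9, higher in US, again without such a share. In L against US at day 28, 19 of 43 members had an unadjusted p under 0.05 and a lower level in L (6.05% of all genes), and without US replicate 3 there were 0. In that fit 33 of 43 log2 fold changes were above 0 (47.2% of all genes with all libraries). Their median was 0.21, against -0.008 for all genes, and 3 members had an unadjusted p under 0.05 with a higher level in L (4.86%). In US against S at day 28, 0 of 43 were called, as for 0% of all genes, and the 19 members with an unadjusted p under 0.05 and a higher level in US (3.2%) were likewise 0 without US replicate 3. There too the direction turned, with 40 of 43 log2 fold changes below 0 (47% of all genes with all libraries). Their median was -0.17, against 0.002 for all genes. An unadjusted p under 0.05 with a lower level in US was then found for 2 members (2.14%). At day 1, Oas3 had 8.79, 9.00 and 3.42 CPM in US lungs, against 3.31, 1.73 and 2.13 CPM in S lungs (1.58 ± 0.42, adjusted p = 0.124), without overlap, and it was chosen after its values were seen because DESeq2 called it. In the other comparisons between sizes 0 of 43 members were called (0% to 0.154% of all genes). In either direction 0 to 5 members had an unadjusted p under 0.05, against 1.67% to 9.07% of all genes. The 5 were higher in US than in S at day 1, where the share was 9.07%.

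The D lungs themselves varied over time. Samd9l, a restrictor of poxviruses, was called higher at day 28 than at day 7, with 166, 144 and 143 CPM at day 28, against 82.9, 111.82 and 121.26 CPM at day 7 (0.52 ± 0.17, adjusted p = 0.0418). This call was lost when D day 7 replicate 1 or 2, or any 1 D library of day 28, was left out, and limma on TPM called 0 members. The other 42 members were not called, in a comparison in which 15.6% of all genes were. All 3 day 28 libraries lay below all 3 day 7 libraries in 11 members (18.3% of all genes) and above them in 5 (19.3%). A fit of only these D libraries called 9 members and 15.5% of all genes, with Samd9l higher at day 28 and Irf7, Bst2, Isg15, Oasl1, Ifi27l2a, Dhx58, Rtp4 and Ifi35 lower. At day 7 against day 1, 0 of 43 were called (0% of all genes), and Isg15 had 19.1, 20.9 and 19.8 CPM at day 1, 33.7, 27.6 and 31.2 CPM at day 7 and 18.2, 24.4 and 23.6 CPM at day 28. Day 7 libraries thus lay above those of both other days in Isg15. Between day 28 and day 1 in D lungs 0 of 43 were called (0.0769% of all genes).

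Whether the difference from D itself changed with time was tested as an interaction, and 0 of 43 members were called in any of 6 such tests (0% to 0.243% of all genes). The difference at day 28 minus that at day 1 had a median log2 value of 0.79 for US, 0.53 for S and 0.41 for L, and an unadjusted p under 0.05 with a higher value was found for 20, 8 and 6 members (5.21%, 9.77% and 4.96% of all genes). Without US day 28 replicate 3 the count for US was 0 and its median 0.13. Oas1a is an example in L: it lay below D at day 1 and above D at day 28 (18.9, 19.8 and 21.1 CPM in L, against 14.9, 15.6 and 15.3 CPM in D), with an interaction of 1.12 ± 0.39 (adjusted p = 0.262). Oasl1 in S had an interaction of 1.44 ± 0.49 (adjusted p = 0.133). A fit of only the 4 groups concerned called 14 members with a higher value at day 28 in S, against 0 in the fit of all groups, while the shares of all genes called were 16.3% and 0.195%. Leaving out S day 1 replicate 1 called Isg20 and Oasl1 in S, and leaving out L day 1 replicate 3 called Oasl1 in L. All had a higher value at day 28, and the shares of all genes called in these fits are not given.

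The members did not behave as 1 block. Without US day 28 replicate 3, the level of Zbp1 followed the mean of the other members with a Pearson correlation of 0.927 over 35 libraries, Oas1a with 0.926, Rtp4 with 0.918 and Usp18, the enzyme that removes Isg15 from proteins, with 0.913. Ifit2 (-0.30), Eif2ak2 (-0.17), Cxcl9 (-0.13), Cxcl10 (-0.02), Samd9l (-0.01) and Parp14 (-0.00) did not follow them. The antiviral score and the GTPase and chemokine score correlated at 0.790 over 36 libraries and at 0.699 over 35. Of the 43 members 34 had their lowest level in an exposed library of day 1, against 45.9% of all genes tested, and 0 in a D library, against 23.3%. Outside the members, the genes whose level was most like the member score over 36 libraries were Ido1 (r = 0.930), the IRG Ifi47 (0.922), Gbp6 (0.918), Gm12185 (0.909) and Tap1 (0.909), a peptide transporter of antigen presentation, and without US day 28 replicate 3 they were Apol9b (0.877), Plac8 (0.876), Tap1 (0.868), Ido1 (0.863) and H2-Q6 (0.861).

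Other listed genes of the interferon pathway, upstream or interferon-induced, showed few calls against D. Of 15 interferon genes listed only Ifng passed the filter, and it was not called in any size against D. Of 9 receptors and kinases and 13 upstream sensors and adaptors, 0 were called in any size against D. Of 9 signal and feedback genes 1 was called, Trim24, a transcriptional corepressor, which rose in US lungs at day 7 (0.43 ± 0.09, adjusted p = 0.0179), where 2.09% of all genes were called. Of 57 further interferon-induced genes 0 were called in any size against D, with 45 of 57 below 0 in S and 48 of 57 in L at day 1 (medians -0.29 and -0.22), against 52.4% and 46.9% of all genes. In D lungs over time, day 28 against day 7, Jak1 (0.30 ± 0.10), Jak2 (0.40 ± 0.12), Tlr7 (0.53 ± 0.18), Irf2 (0.25 ± 0.08), Ptpn11 (0.46 ± 0.13), Slfn5 (1.13 ± 0.34) and Tdrd7 (0.28 ± 0.08) rose and Irf3 (-0.57 ± 0.17) and Psme1 (-0.56 ± 0.19) fell, in a comparison in which 15.6% of all genes were called.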

How the data were processed

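The authors deposited a table of whole read counts per gene for all 36 libraries and, per library, TPM, FPKM and coverage (a signal per base), per the file headers. The deposited TPM values served for levels between genes and for 1 alternative, and FPKM and coverage were not used here. Tools named, without roles, in the submitters' processing notes are StringTie 1.3.3, featureCounts 1.5.1, STAR 2.5.1b, CASAVA and bcl2fastq 2.19.1.403, and the strand setting of the counting is not given in the sources used here. Libraries came from a stranded kit and RNA with an integrity number under 8 had been discarded, per the labels' protocols. The members, lists and tests were chosen with earlier results of these data known. Low counts were removed with filterByExpr, and TMM factors ranged from 0.932 to 1.06. One quasi-likelihood model of edgeR 4.0.16 (R 4.3.3) held the 12 groups and 36 libraries, and contrasts were tested two-sided with Benjamini-Hochberg adjustment over 16903 genes. The code was tested on simulated data. Replicates differed by more than sampling noise (chi-square per degree of freedom at least 6.53), so none was merged.

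Members named by rule were those called, with values per library, and, where a comparison with D called 0, the 3 with the smallest p. Named too were called genes of the other pathway lists, and the 5 non-members above 1 CPM most correlated with the member score. Further members were examples named outside this rule, among them Ifit1 and Ifit2 in S and Cxcl9 in US at day 1. Isg15 in D lungs and the members named for an interaction were such examples too. Alternatives were RLE scaling, no filter, a replicate block, DESeq2 1.42.0, limma 3.58.1 on log2(TPM + 1), restricted to genes averaging 1 TPM or more, only the groups compared, and leaving out each library. Leaving out US day 28 replicate 3 from every comparison and the counts of non-overlapping groups were chosen after seeing the data.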

Additional observations from a re-analysis of the deposited data

Results flagged for a closer look

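Cxcl9 was called in the comparison of L with US lungs at day 28 (log2 fold change -4.09), which is the 1 effect between sizes that passed its test, and it rested on US replicate 3. The call was also lost with a replicate block, with limma on TPM, with only the groups compared and without any 1 L library.

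Irf7 in L lungs lay below D at day 7 (34.2, 44.5 and 46.3 CPM in L, against 62.1, 48.9 and 48.5 CPM in D) and above D at day 28 (52.3, 63.6 and 51.5 CPM in L, against 31.2, 40.0 and 37.9 CPM in D), with every L library on 1 side of every D library on each day. The log2 fold changes were -0.37 and 0.59, a difference of 0.96 between the days, and this difference was not tested.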

How the results depend on the processing

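With 3 libraries per group and 1 library far from its group, few calls were stable. The call of Cxcl9 in L against US at day 28 was kept under RLE scaling and had no adjusted p in DESeq2, which called 1 other member, Gbp2 (1.11% of all genes). That comparison gave 4 members without a filter on low counts (0.411% of all genes), and 0 with the replicate block, 0 with limma on TPM and 0 with only the groups compared. DESeq2 called 1 member (Oas3) in US against S at day 1 (0.763% of all genes). In D day 28 against day 7 DESeq2 called 2 members (20.6% of all genes), where limma on TPM called 0 (8.56%). With only the groups compared the counts were 8 for S against D at day 1, 3 for L against D at day 28, 1 for D day 7 against day 1, 9 (8 of them lower) for D day 28 against day 7 and 14 for the S effect at day 28 against day 1, in fits that called 7.53%, 5.14%, 0.441%, 15.5% and 16.3% of all genes. Leaving out 1 library at a time gave 0 to 2 members for S against D at day 1, 0 to 2 for US against D at day 7, 0 to 2 for US against D at day 28, 0 to 1 for US against S at day 28, 0 to 6 for L against US at day 28, 0 to 2 for D day 28 against day 7, 0 to 2 for the S effect and 0 to 1 for the L effect at day 28 against day 1. The shares of all genes called are not given here for these fits, nor for those named above with 1 library left out. Their counts of members thus have no share to be set against. Gbp5 in US against D at day 28 ranged from -0.052 to 1.89 when 1 library was left out, and its direction reversed (-0.052, adjusted p = 0.995) without US replicate 3. For the other changes the cause was not tested.

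No steady pairing by replicate number was seen: deviations of same-numbered libraries correlated at -0.214 to 0.352, and in 0 of 9 comparisons with D did all 3 pairs exceed 0.1. At day 7 the correlation was 0.352 for replicate 3 of US and D, and 0.276 and 0.322 for replicates 1 and 3 of L and D. With 3 libraries per group this check does not decide whether some samples were paired. Beyond the 0 members for L against US at day 28, the replicate block changed no count of called members.

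The median over members of the log2 fold change moved to 0.09 in US and -0.11 in S at day 7 on the TPM scale, to -0.38 in L at day 7 without L replicate 3, to -0.59 in L at day 1 without L replicate 3 and to -0.12 in US at day 28 without US replicate 3.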
